A study of Homo sapiens with 6 samples.

Results

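Keratins are the intermediate filament proteins of epithelial cells, and 9 keratin genes are described here: KRT8, KRT18, KRT19, KRT7, KRT5, KRT10, KRT80, KRT81 and KRT86. They were chosen by gene symbol as keratins of luminal and basal epithelium together with a few others, and they are 9 of 54 keratin genes among the 59565 loci of the count table. The data are RNA-seq gene counts from C4-2, a prostate cancer cell line of human origin and a subline of LNCaP, in 2 groups of 3 libraries each. One group is the line labelled C4-2 parental and the other its enzalutamide-resistant derivative, labelled C4-2 Enz-R. Enzalutamide is an inhibitor of the androgen receptor. The labels name no genotype, dose or number of passages, do not say whether the Enz-R line is 1 clone or a pool, and do not say whether its cells were in the drug when collected. The comparison asks how keratin transcripts of the resistant line differ from those of the parental line.

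In Enz-R, transcripts of the simple-epithelium pair KRT8 and KRT18 were 1.32-fold and 1.63-fold higher, and KRT80 was 4.56-fold higher. KRT10 and KRT7 were also higher, by 1.66-fold and 2.24-fold. KRT19 moved the other way and was 1.88-fold lower. The hair keratins KRT81 and KRT86 had 1 and 0 counts over the parental libraries and 10 counts each over Enz-R. KRT5, a keratin of basal cells, was at the edge of detection in both groups, with 4 and 2 counts.

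Keratin filaments are built from pairs of a type I and a type II protein, so each cell needs partners from both families. KRT18, KRT19 and KRT10 are type I keratins, and KRT8, KRT7, KRT5, KRT80, KRT81 and KRT86 are type II. In the prostate, luminal cells carry mainly KRT8 and KRT18, basal cells carry KRT5 and KRT14, and KRT19 is found in cells of both layers. Keratin filaments are anchored at desmosomes, the junctions between epithelial cells, and at hemidesmosomes, which hold basal cells to the basement membrane. The type II genes lie together on chromosome 12, with the type I gene KRT18 at one end, and the other type I genes lie on chromosome 17.

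The library totals ran from 15673404 to 28247038 counts. Mitochondrially encoded genes took 8.78% to 11.3% of the counts in the parental libraries and 14.5% to 15.5% in Enz-R. Over tested genes, libraries of the same group had correlations of 0.990 to 0.993 in log2 CPM, and libraries of different groups 0.926 to 0.936. CPM is counts per 1000000, with library totals scaled by the TMM method. Each difference is given as the log2 fold change in Enz-R against parental, ± SE. P-values are those of edgeR's quasi-likelihood test after Benjamini-Hochberg adjustment, which took in the 19029 genes left by a filter on low counts. The labels name no separate cultures, so these p-values measure only the spread between libraries, which may be technical. In such bulk samples, fewer cells with a transcript and less of it per cell cannot be told apart.

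Of the 9 keratins, 6 passed the count filter. At an adjusted p under 0.05, 5 of these were higher in Enz-R, among 32.4% of all tested genes that were higher, and 1 was lower, among 32.3% that were lower. Together 64.8% of all tested genes were called in one direction or the other. KRT5, KRT81 and KRT86 were below the filter and are given as counts. The 3 libraries of one group all lay on one side of the 3 of the other for each of the 6 tested keratins, which was also the case for 68.9% of all tested genes. With so many genes called, a call on a keratin does not set it apart.

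**Figure D1:**
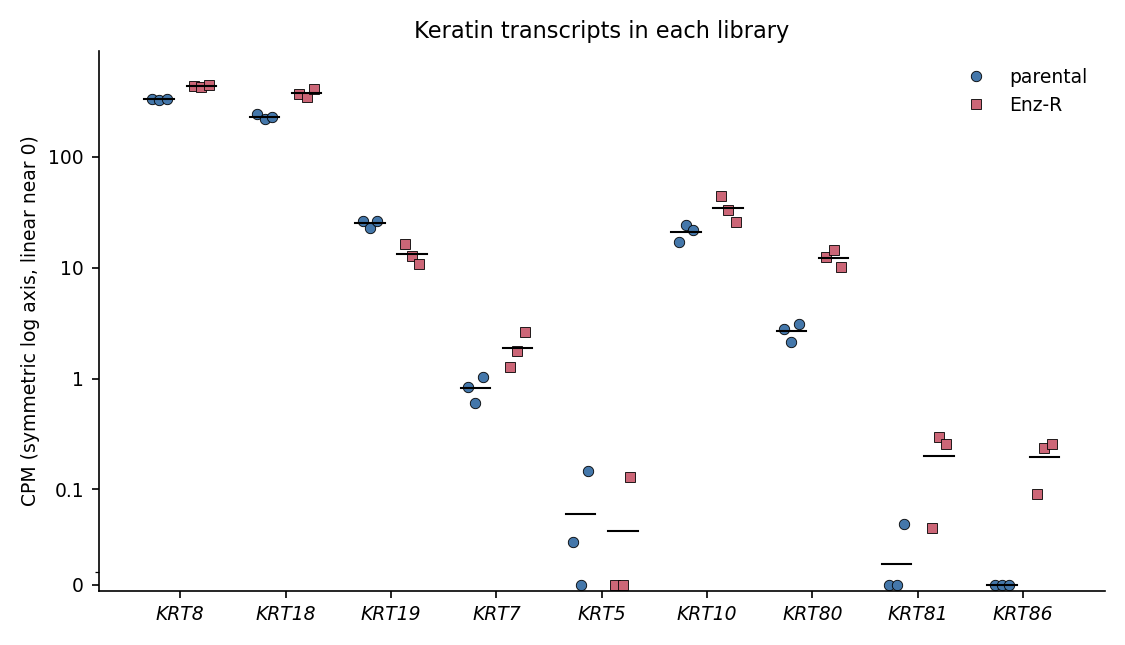
Level of each of the 9 keratins in each library, as counts per 1000000 on a symmetric log axis that is linear near 0. Circles are the 3 parental and squares the 3 Enz-R libraries, and bars are group means. KRT8 and KRT18 lie above 200 CPM in every library, KRT19 is the tested keratin whose Enz-R libraries all lie below the parental ones, and KRT5, KRT81 and KRT86 lie below 0.3 CPM.

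The type II keratin KRT8 (ENSG00000170421, GRCh38 chromosome 12, 52897187 to 52949954, minus strand) forms the main filament of simple epithelia with KRT18. It stood at 331, 327 and 329 CPM in parental libraries 1, 2 and 3, and at 436, 423 and 440.5 CPM in the Enz-R libraries. The groups did not overlap, and the libraries of a group lay close together, with the highest over the lowest at 1.01 in the parental group and 1.04 in Enz-R. Its mean went from 329 ± 2.15 to 433 ± 9.17 CPM (SD, n = 3 each), a log2 fold change of 0.40 ± 0.06 (adjusted p = 2.58e-05, edgeR's quasi-likelihood test). That difference is small in size but several times the spread between libraries. With the mitochondrially encoded genes left out of the scaling the log2 fold change was 0.39, and with total counts as the scale it was 0.30 (adjusted p = 0.000258).

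KRT8 has many processed pseudogenes, copies of its messenger RNA elsewhere in the genome, with which its reads can be confused. The table holds 51 of them, and their counts came to 5.93% of the sum of KRT8 and its copies in the parental group and 4.94% in Enz-R. Most of these were from KRT8P12 (chromosome 3, 160565447 to 160569248), whose transcript was identical to the KRT8 coding sequence at 1256 of 1388 aligned bases (90.5%).

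Of all 150-base windows of the KRT8 coding sequence, the length of 1 read here, 0 occurred letter for letter in a transcript of another gene. Of its 50-base windows, 48.3% did so, in 37 other genes. KRT8P3 shared the most of them, 395, while KRT8P12, the copy with most counts, shared 4. KRT8P12 itself stood at 15.5 ± 0.461 CPM in the parental group and 17.3 ± 0.437 CPM in Enz-R (log2 fold change 0.15 ± 0.09, adjusted p = 0.137 by edgeR's quasi-likelihood test). When KRT8 and its 51 copies were summed before testing, the log2 fold change was 0.38 ± 0.06 (adjusted p = 3.85e-05, edgeR).

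KRT18 (ENSG00000111057, chromosome 12, 52948871 to 52952901, plus strand) is the type I partner of KRT8. It stood at 241, 219 and 227.5 CPM in the parental libraries and at 370.4, 343 and 407 CPM in Enz-R. Every Enz-R library lay above every parental one, and the Enz-R libraries were the more spread, with the highest at 1.19 times the lowest against 1.10 times in the parental group. The mean went from 229 ± 11.3 to 373.5 ± 31.9 CPM (SD, n = 3 each). The log2 fold change was 0.70 ± 0.07 (adjusted p = 5.19e-07, edgeR's quasi-likelihood test).

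The table holds 67 pseudogenes of KRT18, which together held 1.3% of the summed counts in the parental group and 0.989% in Enz-R. With them added to KRT18, the log2 fold change was 0.70 ± 0.07. A closer source of shared sequence is KRT8 itself. The KRT8 and KRT18 genes lie on opposite strands with 525 exon bases in common, 7.63% of the exon bases of KRT8 and 16.3% of those of KRT18. All 155 of the 1144 windows of 150 bases of KRT18 that another gene shared (13.5%) were in KRT8 transcripts on the opposite strand. No source used here says that reads were counted by strand, so reads from that stretch cannot be assigned to one gene.

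The ratio of KRT18 to KRT8 counts in a library does not depend on how libraries are scaled. It was 0.730, 0.670 and 0.692 in the parental libraries and 0.849, 0.812 and 0.923 in Enz-R, and the groups did not overlap. The mean ratio went from 0.697 ± 0.0300 to 0.861 ± 0.0569 (SD, n = 3 each), which is 1.23-fold on the log scale. A two-sided exact permutation test gave p = 0.1, the smallest that 3 against 3 libraries allow. Adding the pseudogenes of each gene left the ratio 1.24-fold higher in Enz-R. Transcripts of both partners were thus higher in Enz-R, with the larger difference in the type I partner.

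**Figure D2:**
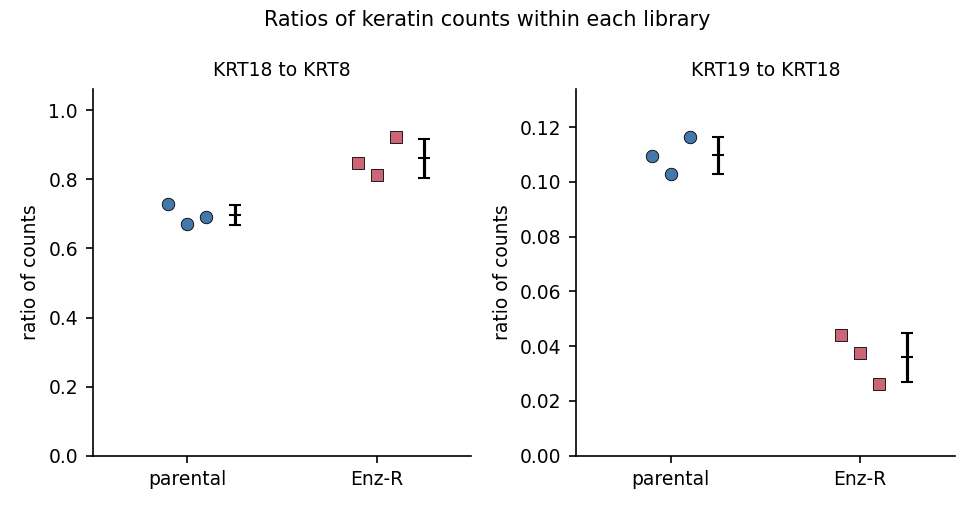
Ratio of KRT18 to KRT8 counts (left) and of KRT19 to KRT18 counts (right) in each library, with group means ± SD beside the points; both axes start at 0. The 3 Enz-R libraries lie above the 3 parental ones for KRT18 to KRT8 (0.812 to 0.923 against 0.670 to 0.730) and below them for KRT19 to KRT18.

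KRT19 (ENSG00000171345, chromosome 17, 41523617 to 41528308, minus strand), the smallest type I keratin, is found in many simple and glandular epithelia. It stood at 26.5, 22.5 and 26.5 CPM in the parental libraries and at 16.3, 12.8 and 10.7 CPM in Enz-R. All Enz-R libraries were below all parental ones, and their spread was wider, with the highest at 1.53 times the lowest against 1.18 times in the parental group. The mean fell from 25.2 ± 2.28 to 13.3 ± 2.84 CPM (SD, n = 3 each), a log2 fold change of -0.91 ± 0.12 (adjusted p = 1.29e-05, edgeR's quasi-likelihood test).

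Unlike KRT8 and KRT18, KRT19 had almost no reads on copies: its 5 pseudogenes held 0.171% of the summed counts in the parental group and none in Enz-R, and 24 of 1154 windows of 50 bases were shared with another gene. Relative to the other type I keratin of simple epithelia, the change was larger. KRT19 counts were 0.110, 0.103 and 0.117 times those of KRT18 in the parental libraries and 0.0440, 0.0374 and 0.0263 times in Enz-R, a ratio 3.12-fold lower. The plot of count ratios shows the gap between the groups.

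KRT7 (ENSG00000135480, chromosome 12, 52232520 to 52252186, plus strand) is a type II keratin of ducts and other glandular epithelia and was scarce. Its counts were 24, 12 and 21 in the parental group and 28, 30 and 41 in Enz-R. The levels were 0.836, 0.601 and 1.025 CPM against 1.28, 1.765 and 2.65 CPM, so the groups did not overlap although the highest Enz-R library was 2.07 times the lowest. The means were 0.8205 ± 0.212 and 1.90 ± 0.697 CPM (SD, n = 3 each). The log2 fold change was 1.17 ± 0.31 (adjusted p = 0.00400, edgeR's quasi-likelihood test), and without Enz-R library 3 it was 0.87 (adjusted p = 0.0283, edgeR).

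The antisense gene KRT7-AS, which overlaps KRT7 by 282 exon bases on the other strand, had 3 counts over the parental libraries and 42 over Enz-R. That is a ratio of 17.8 (95% counting interval 5.70 to 89.9, which covers counting error only). KRT7-AS passed the count filter only through Enz-R, so its test is not given. Because strand was not stated, KRT7 and KRT7-AS reads in the shared stretch, 6.89% of the exon bases of KRT7, cannot be told apart.

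KRT80 (ENSG00000167767, chromosome 12, 52168996 to 52192000, minus strand) is a type II keratin of stratified and simple epithelia that lies near the cell margins. It stood at 2.79, 2.15 and 3.12 CPM in the parental libraries and at 12.4, 14.3 and 10.2 CPM in Enz-R. The lowest Enz-R library was above the highest parental one by a wide margin, and the spread within a group was alike, with highest over lowest at 1.45 and 1.41. Its mean rose from 2.69 ± 0.492 to 12.3 ± 2.10 CPM (SD, n = 3 each). The log2 fold change of 2.19 ± 0.17 (adjusted p = 2.45e-08, edgeR's quasi-likelihood test) was the largest among the 6 tested keratins. None of its 1210 windows of 150 bases occurred in a transcript of another gene.

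KRT10 (ENSG00000186395, chromosome 17, 40818117 to 40822595, minus strand) is the type I keratin of the upper layers of the epidermis, where KRT1 is its partner. It stood at 17.2, 24.1 and 21.8 CPM in the parental libraries and at 44.2, 33.1 and 26.0 CPM in Enz-R. The groups were next to each other without overlap: the lowest Enz-R library was at 26.0 and the highest parental library at 24.1 CPM. The mean went from 21.0 ± 3.53 to 34.4 ± 9.16 CPM (SD, n = 3 each), a log2 fold change of 0.73 ± 0.15 (adjusted p = 0.000656, edgeR's quasi-likelihood test). Enz-R library 1 carried part of that: without it the log2 fold change was 0.51 (adjusted p = 0.00162, edgeR).

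KRT1, the epidermal partner of KRT10, had 1 count in each parental library and 0 in Enz-R. The neighbouring gene KRT10-AS1, on the other strand, shares 56 exon bases (2.61%) with KRT10. It went from 17.1 ± 1.21 to 30.0 ± 3.60 CPM (log2 fold change 0.82 ± 0.10, adjusted p = 2.41e-06, edgeR). KRT10 and its antisense neighbour were thus both higher, and for such neighbours reads of the shared bases cannot be assigned to a strand.

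KRT5 (ENSG00000186081, chromosome 12, 52514575 to 52520687, minus strand), the type II keratin of basal cells, was seen in the parental libraries with 1, 0 and 3 counts and in Enz-R with 0, 0 and 2. The groups overlapped, and the ratio of the summed counts on the scaled totals was 0.6365 (95% counting interval 0.0576 to 4.44). Neither a rise nor a fall was detectable at this depth, at which 3 counts correspond to 0.105 to 0.194 CPM in a library. Its type I partner in basal cells, KRT14, was seen in the parental libraries with 17, 14 and 16 counts and had 0 in each Enz-R library. KRT14 was 12.3-fold lower in Enz-R with 3 counts over the group in place of 0. It passed the count filter only through the parental group, so its test is not given.

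KRT81 (ENSG00000205426, chromosome 12, 52285913 to 52291534, minus strand) and KRT86 (ENSG00000170442, chromosome 12, 52249300 to 52309163, plus strand) are type II keratins of hair and nail. KRT81 counts were 0, 0 and 1 in the parental group and 1, 5 and 4 in Enz-R, a ratio of 12.7 (95% counting interval 1.81 to 552). KRT86 had 0 counts in each parental library and 2, 4 and 4 in Enz-R, which is 4.24-fold higher with 3 counts in place of 0. The KRT86 libraries did not overlap between groups, whereas the KRT81 libraries met at 1 count. Without the count filter, edgeR called both higher, as it did 16.5% of all genes with a count. Their counts came almost only from Enz-R, so nothing is read from these calls.

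These few reads cannot be placed firmly on 1 gene of the group. The coding sequences of KRT81 and KRT86 were identical at 1363 of 1457 aligned bases (93.5%), and KRT83, another hair keratin, was 93.2% identical to KRT81 and 91.4% to KRT86. Of 150-base windows, 33.3% of those of KRT81 and 34.8% of those of KRT86 were found letter for letter in the other gene. The following 60-base stretches, from GENCODE 29 transcripts on GRCh38, show why a read may or may not tell KRT81 from KRT86. Bases 61 to 120 of both coding sequences have 0 mismatches.

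KRT81: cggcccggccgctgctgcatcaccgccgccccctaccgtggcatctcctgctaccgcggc
KRT86: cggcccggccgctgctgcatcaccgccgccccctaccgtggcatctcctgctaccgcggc

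Bases 1249 to 1308 have 14 mismatches, printed in capitals.

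KRT81: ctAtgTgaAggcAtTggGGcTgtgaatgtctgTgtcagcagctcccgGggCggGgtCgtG
KRT86: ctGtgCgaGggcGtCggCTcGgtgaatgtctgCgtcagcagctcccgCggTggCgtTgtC

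Summing KRT81, KRT83, KRT86 and the pseudogene KRT87P avoids that choice. The summed counts were 2, 1 and 1 in the parental group and 16, 16 and 11 in Enz-R. These groups did not overlap, but the sum passes the count filter only through Enz-R, so its test is not given. It covers these 4 genes alone: KRT34 and KRT84, other hair keratins, had 6 and 2 counts over the parental libraries and 5 and 0 over Enz-R.

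Levels of different genes were compared per length, as RPKM, which is CPM per 1000 bases of the union of a gene's exons. In the parental group the order from the highest was KRT18 (71.3 ± 3.53 RPKM), KRT8 (47.8 ± 0.313), KRT19 (10.8 ± 0.975), KRT10 (9.81 ± 1.65), KRT80 (0.618 ± 0.113), KRT7 (0.2005 ± 0.0519), KRT5, KRT81 and KRT86. In Enz-R it was KRT18 (116 ± 9.90 RPKM), KRT8 (63.0 ± 1.33), KRT10 (16.1 ± 4.27), KRT19 (5.68 ± 1.22), KRT80 (2.83 ± 0.482), KRT7 (0.464 ± 0.170), KRT81, KRT86 and KRT5. KRT19 and KRT10 could not be ordered in the parental group, where their libraries spanned 9.65 to 11.3 and 8.01 to 11.2 RPKM. In Enz-R they no longer overlapped, at 4.57 to 6.98 RPKM for KRT19 and 12.1 to 20.6 RPKM for KRT10. KRT5, KRT81 and KRT86 were not ordered among themselves at such counts.

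Among 19922 protein-coding genes, KRT18 ranked 406 by RPKM in the parental group and 233 in Enz-R, and KRT8 ranked 686 and 505. The order of this pair depends on the length used. Per length of the longest transcript, KRT8 stood above KRT18 in the parental group (115 against 110 RPKM, the means being 114.9 and 109.8) and below it in Enz-R (151 against 179 RPKM).

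The sum over all 54 keratin genes went from 613 ± 12.7 to 873.5 ± 36.0 CPM (SD, n = 3 each). KRT8 and KRT18 supplied 91.05% ± 0.495 of the keratin counts in the parental libraries and 92.3% ± 1.43 in Enz-R. The keratin pool was therefore almost all this pair in both groups, and all keratin reads together were 0.0617% to 0.0643% of a parental library and 0.0813% to 0.0889% of an Enz-R library.

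The other keratins were few. Of the 25 other type I keratins, 2 passed the count filter. KRT14 did so only through the parental group, as above. KRT20, a keratin of gut epithelium, was not called (log2 fold change 0.10 ± 0.38, adjusted p = 0.824, edgeR). Another 12 had no count in any library. Of the 20 other type II keratins, 3 were tested. KRT73, a keratin of the hair root sheath, was lower, with 108 counts over the parental libraries and 34 over Enz-R (-1.30 ± 0.28, adjusted p = 0.000790, edgeR). KRT2, an epidermal keratin, had -0.64 ± 0.29 (adjusted p = 0.0632), and KRT72, another root sheath keratin, 0.18 ± 0.42 (adjusted p = 0.719), neither of which was called by edgeR.

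Among the other type II keratins below the filter, 5 had counts mainly in Enz-R and were picked out after their values were seen. Others went the opposite way: KRT1, KRT78, KRT79 and KRT84 had 3, 2, 2 and 2 counts over the parental libraries and 0 over Enz-R. KRT6C, a keratin of stratified epithelium, had 3 and 31 counts over the groups (ratio 13.2, 95% counting interval 4.10 to 67.2). KRT75, KRT83, KRT3 and KRT4 had 0 counts over the parental group and 11, 10, 7 and 6 over Enz-R. With 3 counts in place of 0, that is 4.67-fold, 4.24-fold, 2.97-fold and 2.55-fold higher. These genes, at 14 counts or fewer in any library, are near the limit of detection.

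**Figure D3:**
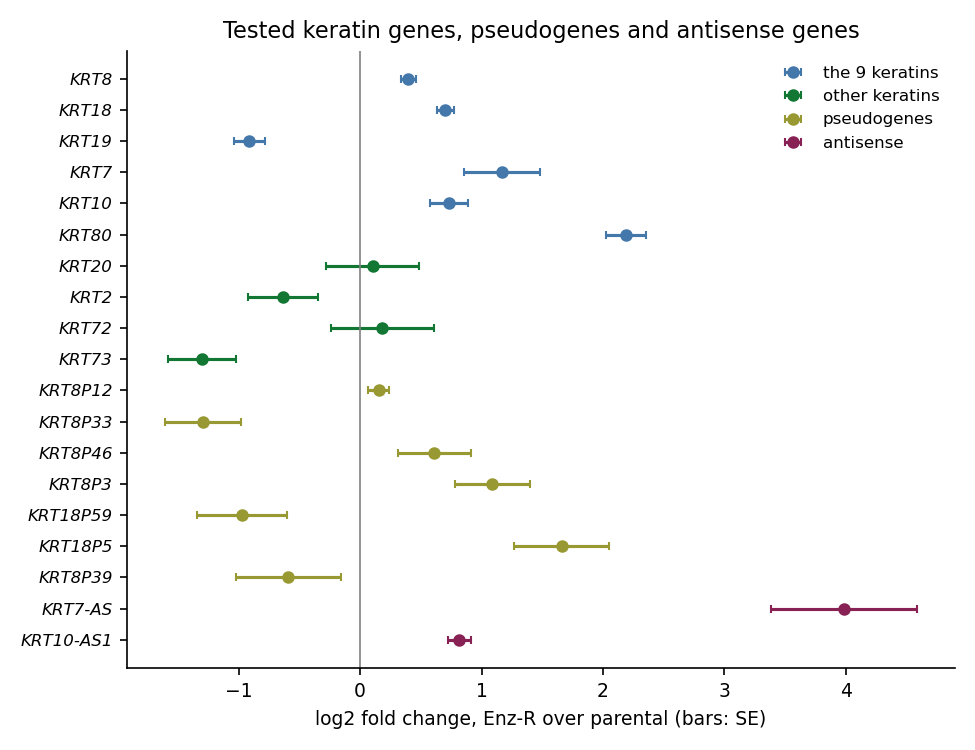
Log2 fold change of Enz-R over parental with its SE (bars) for each tested keratin, keratin pseudogene and antisense gene. KRT14, at 0 counts in Enz-R, has no finite fold change and is not drawn. KRT7-AS passed the count filter only through Enz-R. KRT8P33, KRT8P3, KRT18P5 and KRT18P59 cleared it in every library of their higher group only. Nothing is read from the direction of these points. KRT19, KRT73, KRT8P33 and KRT18P59 lie below 0 and were called lower, while KRT2 and KRT8P39 lie below 0 without a call.

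Of 150 keratin pseudogenes in the table, 7 were tested, of which 2 were higher and 2 lower. KRT8P33, whose transcript is 95.8% identical to KRT8, was lower (-1.29 ± 0.31, adjusted p = 0.00209, edgeR), and KRT8P3 was higher (1.09 ± 0.31, adjusted p = 0.00632, edgeR), as was KRT18P5, with 23 and 58 counts over the groups. KRT8P46 was not called (0.61 ± 0.30, adjusted p = 0.0855, edgeR). KRT18P59, 84.7% identical to KRT18, was lower (-0.97 ± 0.37, adjusted p = 0.0326, edgeR), a call that was lost in 5 of the alternatives. With 24 to 124 counts a group for KRT8P33, KRT8P3, KRT8P46 and KRT18P59, the copies carried few reads. KRT8P33, KRT8P3, KRT18P5 and KRT18P59 each cleared the count filter in every library of their higher group only. Nothing is therefore read from the directions of these calls.

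Along chromosome 12 the keratins differed by position, a pattern chosen after the values were seen and not tested. Among keratin genes, pseudogenes and antisense genes with at least 10 counts over the 6 libraries, those from KRT80 to KRT6C, with gene centres 11.5 to 302 kb from the first base of KRT80, all had higher scaled counts in Enz-R. Apart from KRT80 and KRT7, however, the genes of that stretch had 0 to 3 counts over the parental libraries and reached the minimum only through Enz-R, and several share reads, so nothing is read from their common direction. The interval of the antisense gene AC021066.1 (3 and 9 counts) crossed no difference. KRT72 (425 kb) was near no difference, and KRT73-AS1, KRT73 and KRT2 (439, 444 and 479 kb) had lower counts, with an interval that crossed no difference for KRT73-AS1. KRT8 and KRT18, at 755 and 782 kb, were higher. Of the 9 keratins, KRT5 lies between KRT6C and KRT72 and had too few counts for this comparison.

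For the 3 keratins of simple epithelia, the protein-coding genes with the most similar pattern over the 6 libraries were found among 10903 genes at 5 CPM or more. The measure was the root mean square difference of log2 CPM after centring each gene. For KRT8 they included SRP9, a subunit of the signal recognition particle (difference 0.0100), and MIB2, a ubiquitin ligase (0.0150). For KRT18 they were DRAP1, a subunit of a transcription repressor (0.0230), PIGL, an enzyme of GPI anchor synthesis (0.0291), and CD99, a surface glycoprotein (0.0309). For KRT19 they were FAM118B (0.0554), the nectin-like receptor PVR (0.0880) and UGDH, which makes UDP-glucuronic acid (0.0893). The best matches of KRT19 were less close than those of KRT8 and KRT18.

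Desmosomes are where keratin filaments meet the cell border. Of 14 desmosome genes, 10 were tested, with 0 higher and 6 lower in Enz-R, and a median log2 fold change of -0.99 beside 0.01 over all tested genes. For this list and those below, the shares over all tested genes were 32.4% higher and 32.3% lower. DSG2, a desmosomal cadherin, stood at 397, 400.5 and 410.3 CPM in the parental libraries and at 41.7, 44.8 and 41.6 CPM in Enz-R. The groups were far apart, and the log2 fold change was -3.24 ± 0.07 (adjusted p = 6.68e-15, edgeR's quasi-likelihood test). DSC2, the partner cadherin, fell from 74.2 ± 3.72 to 4.43 ± 0.156 CPM (-4.06 ± 0.09).

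The desmosomal link to keratin itself, desmoplakin (DSP), fell from 251 ± 18.2 to 81.9 ± 4.64 CPM (-1.62 ± 0.07, adjusted p = 4.70e-11, edgeR). Plakophilin PKP3 fell as well (-0.36 ± 0.06). The epidermal cadherins DSG1 and DSC1, named here although outside the rule for named genes, had 88 and 131 counts over the parental libraries and 0 and 2 over Enz-R. Both passed the count filter only through the parental group. DSG1 was 23.0-fold lower with 3 counts in place of 0, and the ratio for DSC1 was 0.0194 (95% counting interval 0.00233 to 0.0716). DSG1 and DSC1 are among the 6 lower genes of the list and pull its median down. Apart from them, the genes called lower were DSG2, DSC2, DSP and PKP3. Plakoglobin (JUP) was not called, with -0.15 ± 0.06 (adjusted p = 0.0518, edgeR), and neither were PKP2, PKP4 and PERP. All DSG and DSC genes are neighbours on chromosome 18, between 30990008 and 31549008.

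Genes of hemidesmosomes and plakins, which tie keratin to the basement membrane and to other filaments, went both ways. All 13 were tested, with 6 higher and 4 lower and a median log2 fold change of 0.07. Integrin β4 (ITGB4), which binds plectin, rose from 23.9 ± 0.899 to 53.8 ± 1.10 CPM (1.17 ± 0.07). Periplakin (PPL) and envoplakin (EVPL) rose by 1.04 ± 0.08 and 0.68 ± 0.07. Dystonin (DST) and MACF1 fell by 1.34 ± 0.08 and 0.76 ± 0.07, and integrin α6 (ITGA6), the partner of integrin β4, fell by 0.26 ± 0.07. Plectin (PLEC) was not called (-0.10 ± 0.07, adjusted p = 0.206, edgeR).

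Of 12 tested genes that organise, modify or fold keratin filaments, 3 were higher and 7 lower (median log2 fold change -0.18). CSNK1A1, a kinase recruited to keratin filaments by FAM83H, fell from 154 ± 17.1 to 38.7 ± 5.40 CPM (-1.99 ± 0.10, adjusted p = 1.85e-10, edgeR). The chaperones HSPA8 and HSPB1 fell by 1.12 ± 0.10 and 0.45 ± 0.06. FBF1, a keratin-binding protein of the centrosome region, rose by 0.48 ± 0.10.

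The 17 other intermediate filament genes included 7 that were tested, with 1 higher and 6 lower (median log2 fold change -0.58). Nestin (NES) fell from 74.2 ± 1.23 to 10.5 ± 1.39 CPM (-2.83 ± 0.08, adjusted p = 6.02e-13, edgeR). Vimentin (VIM), the filament of mesenchymal cells, fell from 6.20 ± 0.724 to 2.63 ± 0.729 CPM (-1.25 ± 0.19), and lamin B1 (LMNB1), of the nuclear envelope, by 0.77 ± 0.06. The 1 higher gene was peripherin (PRPH), a filament of neurons, whose groups overlapped (0.54 ± 0.16, adjusted p = 0.00698, edgeR), and which is named because it was the only one.

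Epithelial transcription factors were split, with 5 higher and 5 lower of 12 tested and a median log2 fold change of -0.04. KLF5, ELF3 and ELF5 rose by 1.23 ± 0.10, 1.16 ± 0.11 and 1.09 ± 0.08. KLF4, EHF and GRHL1 fell by 1.78 ± 0.12, 1.22 ± 0.09 and 0.45 ± 0.08. The basal factor TP63 was not called (-0.13 ± 0.18, adjusted p = 0.527, edgeR) and stood at 3.52 ± 0.544 and 3.18 ± 0.0685 CPM.

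**Figure D4:**
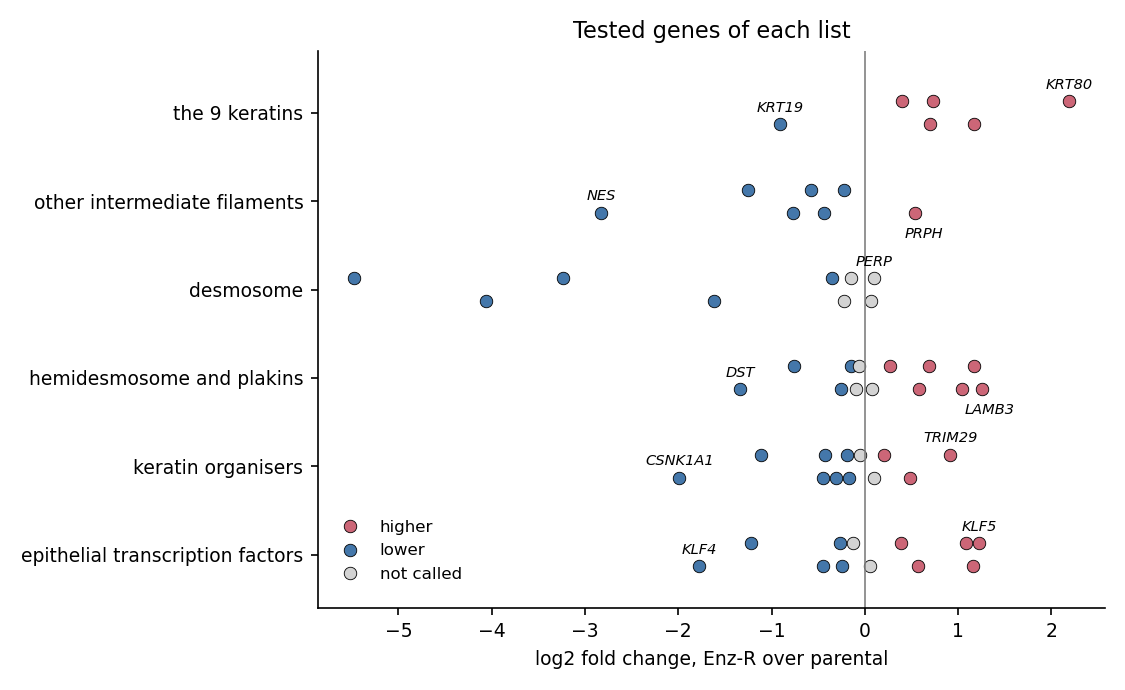
Log2 fold change of Enz-R over parental for the tested genes among the 9 keratins and each list of related genes, coloured by edgeR's call; points are offset vertically only to separate them. DSG1, at 0 counts in Enz-R, is not drawn, and DSC1 passed the count filter only through the parental group. The other called desmosome genes all lie left of 0, and 5 of the 6 tested keratins right of it.

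Markers of the cell types to which these keratins belong were counted beside them. Of 12 prostate luminal markers, 11 were tested, with 2 higher and 8 lower, so that luminal markers other than KRT8 and KRT18 were mostly lower. Their summed level went from 8566 to 9138 CPM across the parental libraries to 4162 to 4386 CPM across Enz-R. ACP3, DPP4 and TMPRSS2 fell by 2.99 ± 0.13, 2.77 ± 0.12 and 2.09 ± 0.07. AMACR rose by 0.61 ± 0.13, and CD24 by 0.24 ± 0.07, a call that was lost with total count scaling (adjusted p = 0.0686, edgeR).

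Of 12 basal markers, 9 were tested, with 2 higher and 4 lower, and their sum went from 206 to 209 CPM down to 117 to 118 CPM. JAG1, a Notch ligand, made most of that difference and fell from 89.7 to 3.39 CPM (-4.71 ± 0.09). DST and ITGA6 were also lower, as was KRT14, which passed the count filter only through the parental group. The 2 higher were ITGB4 (1.17 ± 0.07) and TRIM29 (0.92 ± 0.24). TP63, CAV1 and COL17A1 were not called. DLK1 was at 0 in every library, and NGFR had 13 and 12 counts over the groups. Whether the parental and Enz-R libraries differ in their share of basal-like cells was not tested.

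Of 12 club or hillock markers, 4 were tested, with 2 higher and 0 lower, and PSCA rose by 1.57 ± 0.09. The other higher gene, PIGR, had 17 and 49 counts over the groups and passed the count filter only through Enz-R. The sum of the 12 markers was 383 to 418 CPM in the parental libraries and 380.0 to 440.2 CPM in Enz-R. Nearly all of it was CLDN4, which was not called (means 384 and 366 CPM). KRT23 and MMP7 were at 0. Of 13 squamous markers, 3 were tested, with 0 higher and 1 lower, sums of 10.3 to 12.01 and 8.36 to 9.59 CPM, and LORICRIN, SPRR1B and S100A7 at 0. The lower gene was TGM3, with 269 and 53 counts over the groups, while IVL, below the filter, had 4 and 26. Of 11 neuroendocrine markers, 3 were tested, and ENO2 and SYP rose by 1.52 ± 0.10 and 1.17 ± 0.18. The neuroendocrine sum went from 31.6 to 43.4 CPM up to 99.7 to 106 CPM, while CHGA had 29 and 6 counts over the groups and CHGB 1 and 0.

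Markers of other cell types were also counted. Of 8 fibroblast markers, 3 were tested and 1 was lower, COL1A1 (-0.23 ± 0.07), a call that was lost without Enz-R library 1 or 2. The fibroblast sum was 57.2 to 60.6 CPM in the parental libraries and 46.1 to 55.5 CPM in Enz-R, nearly all of it COL1A1, with DCN at 3 and 2 counts. Of 6 endothelial markers, 3 were tested and 2 were lower, among them VWF (-2.96 ± 0.23), with sums of 10.6 to 12.8 and 5.12 to 6.54 CPM and PECAM1 at 2 and 4 counts. Of 8 immune markers, 3 were tested, with 1 higher and 1 lower, sums of 4.26 to 5.56 and 4.20 to 4.71 CPM, and PTPRC at 2 and 6 counts. The part of any of these markers in the keratin differences was not tested.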

How the data were processed

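RNA extracted with TRIzol was made into libraries with a NEBNext Ultra kit and read as 150 bp pairs, per the labels' protocols. The submitters' processing notes name HISAT2 and GRCh38. Not given in the sources used here: the version of HISAT2, the program and annotation used to count reads, and whether strand was used. The authors deposited raw counts for each locus and library, whole numbers without scaling. The table has 59565 loci, of which 889 are unannotated. GENCODE 29 supplied the positions, and 41937 identifiers had a current symbol.

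The groups were compared by edgeR 4.0.16 (R 4.3.3) with filterByExpr, TMM, glmQLFit and glmQLFTest on group alone. Benjamini-Hochberg adjustment covered the 19029 tested genes, at a threshold of 0.05. The common biological coefficient of variation was 7.20%. Replicate pairs differed by 4.30 to 10.1 in chi-square per degree of freedom, more than counting error. The SE comes from the F statistic and can be too small at low counts. For genes at 0 in a group, ratios put 3 counts in place of 0 and leave out the counting error of the other group. Other ratios of few counts have exact 95% intervals. In simulated counts with changes planted in few genes, edgeR recovered 65.7% of 1.5-fold, 76.2% of 2-fold and 100% of 4-fold changes. It made 18 false calls among 18440 unchanged genes. Far more genes were called in the data than were changed there. Changes under 1.5-fold, such as that of KRT8, were not simulated.

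The 9 keratins and all lists were chosen with earlier results of these data known. Named genes are the 9 keratins, every other tested keratin, the top 5 pseudogenes with at least 50 counts, and the 3 genes most like each of KRT8, KRT18 and KRT19. From each list, up to 3 higher and 3 lower called genes are named by size of change, where the groups did not overlap and the higher mean was 5 CPM or more. Others are named because a count is small or a result turns on them, after their values were seen.

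Alternatives were a replicate block, leaving out each library, DESeq2 size factors, total count scaling, no filter, at least 50 counts in 3 libraries, DESeq2 1.42.0, limma-voom (limma 3.58.1), sums with near-identical copies and length of the longest transcript. Leaving out mitochondrially encoded genes was added after the data were seen. Coding sequences were the longest reading frames of principal GENCODE transcripts. Tables were made with pandas 2.3.3, scipy 1.17.1 and numpy 2.4.6 under Python 3.11.15, and figures with matplotlib 3.10.9. Promoter and protein sequences were not used here. Some genes and sequences that the rules above cover are left out.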

Additional observations from a re-analysis of the deposited data

How the results depend on the processing

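Each of the 6 tested keratins kept its direction and its call in every alternative that tested it. The log2 fold changes ranged over 0.30 to 0.43 for KRT8, 0.61 to 0.77 for KRT18, -1.09 to -0.78 for KRT19, 0.87 to 1.41 for KRT7, 0.51 to 0.90 for KRT10 and 2.06 to 2.31 for KRT80. KRT7 was not tested at a minimum of 50 counts, which left 4 higher and 1 lower. Without a filter 7 were higher and 1 lower, beside 16.5% and 17.3% of all genes with a count. These 7 include KRT81 and KRT86, whose counts came almost only from Enz-R, so nothing is read from their calls. Per length of the longest transcript, 2 keratins, KRT8 and KRT18, changed places in the parental order. Over all genes, 6179 were higher and 6158 lower with the replicate block, 5629 to 6133 higher and 5813 to 6157 lower without 1 library, and 5208 higher and 7094 lower with total count scaling, which shifts the median log2 fold change by -0.095 and makes 42.3% of calls higher in place of 50.1%. Same-numbered libraries did not deviate together (correlations 0.049, -0.008 and 0.011), so the numbers do not pair them, and the replicate block changed no keratin call. For the KRT18 to KRT8 ratio, the block cannot change the mean log2 difference of 0.30, because each group has the same numbers. An exact sign-flip test within same-numbered libraries gave p = 0.25, and so few pairs allow no small p. Without 1 library, the log2 fold change of KRT20 ranged from -0.099 to 0.387 and that of KRT72 from -0.037 to 0.491. KRT20 turned sign without parental library 1 (-0.006), parental library 2 (-0.064) or Enz-R library 2, and KRT72 without Enz-R library 3, but neither was called and the cause was not tested. KRT2, not called otherwise, was called without parental library 3 (adjusted p = 0.0456, edgeR) and with total count scaling (adjusted p = 0.0347). The call on KRT18P59 was lost without parental library 1 or 3, without Enz-R library 1 or 3, and with DESeq2 (adjusted p up to 0.161). With 3 libraries a group, no exact test can go below p = 0.1, and keratins under about 10 counts a library are limited by depth.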
